A study of Mus musculus with 16 samples.

Results

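The mRNAs of 35 genes for aminoacyl-tRNA synthetases and the scaffold proteins that hold some of them together were examined in RNA bisulfite libraries of mouse embryonic stem cells. The genes were chosen by name: 17 cytosolic synthetases, 15 mitochondrial synthetases and 3 scaffold proteins, none of them on chromosome 8. All 35 were found, as 43 RefSeq mRNA references among the 15330 in the files. For the 8 genes with more than 1 reference, the reference with the highest mean coverage stands for the gene.

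The study compared wild type stem cells with stem cells lacking Dnmt2 (Dnmt2-/-), an enzyme that methylates cytosines of tRNAs and is encoded by Trdmt1, both of the J1 background. Both were grown in medium with fetal calf serum and ESGRO on feeder layers of primary mouse embryonic fibroblasts, and the fibroblasts were left behind on dishes, to which they attach faster, before harvest. The 6 libraries used here hold RNA longer than 200 nt after rRNA depletion, 3 per genotype, out of 16 libraries in the series. The labels do not tell whether replicates were separate cultures or clones, so every p-value reflects variation among these libraries alone, which could be technical.

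Aminoacyl-tRNA synthetases join each amino acid to its tRNA, and separate nuclear genes mostly serve the cytosol and the mitochondria. In the cytosol several synthetases form the multisynthetase complex around the scaffold proteins Aimp1, Aimp2 and Eef1e1. Dnmt2 methylates the tRNAs for aspartate, glycine and valine, which are charged by the products of Dars, Gars and Vars.

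A RefSeq table of promoters (build GRCm38.p6) held 26 of the 35 genes, and the promoters were searched because many synthetase genes are known targets of the stress factor Atf4, which binds C/EBP-ATF response elements. The motif TGATGNAA, searched on both strands of 300 bases (250 before to 50 after the start), was present in 4 of 10 cytosolic synthetase genes (Gars, Tars, Iars and Yars), in 0 of 13 mitochondrial synthetase genes and in 0 of 3 scaffold genes. It was present in 4.51% of all 27025 genes in the table. The pair of matches that lie wholly before the start are shown with the motif, read here on the reverse strand, in capitals; the Gars stretch is chr6:55037960-55037989 on the plus strand and the Tars stretch is chr15:11399659-11399688 on the minus strand.
Gars: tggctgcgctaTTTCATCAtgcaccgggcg
Tars: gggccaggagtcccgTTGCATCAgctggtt
The E-box CACGTG was in 3 cytosolic (Farsb, Iars and Tars) and 1 mitochondrial (Ears2) gene against 8.09% of all genes, and the palindromic consensus of Nrf1 was in 0 of the 26 against 1.07%. A match describes these letters only. The 4 cytosolic genes with TGATGNAA had a median coverage of 54.6 and a median log2 difference between genotypes of 0.06, beside a median coverage of 32.3 for the 6 without it and a median log2 difference of 0.04 for the 5 of these that were tested.

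Each deposited file lists the cytosines of reference mRNAs with the number of reads covering each, and the level of a transcript was taken as the mean coverage over its listed cytosines, scaled between libraries. This is a value per position, so it does not grow with the length of a gene. Cytosines listed in no library do not enter it, so genes listed over short stretches are less comparable with the others. Summed coverage ranged from 37786723 in wild type replicate 3 to 143488903 in wild type replicate 2, with a median of 6 to 11 reads per listed cytosine. The targeted transcript Trdmt1 was covered at 4.32, 3.47 and 2.93 in wild type replicates 1 to 3 and at 1.30, 0.458 and 0.978 in the knockout. Its genotypes did not overlap (log2 difference -1.56, limma adjusted p = 0.370), which held for 12.1% of all transcripts tested. The highest stem cell marker, Dppa5a, stood at 950.4 to 1794 in all 6 libraries. Of 14 tested stem cell markers 10 were higher in the knockout (71.4%, median log2 0.16), beside 55.1% of all transcripts. An unadjusted limma p under 0.05 was reached by 5 of them (35.7%), beside 7.11% of all transcripts, and 0 passed the limma test. The summed scaled coverage of the 15 listed was 2125 to 2435 in wild type and 2331 to 3037 in the knockout. Of 15 early lineage markers 9 were listed, summing to 12.5 to 25.5 in wild type and 9.09 to 18.0 in the knockout, and 3 of the 4 tested were lower (median log2 -0.98). Of 20 feeder fibroblast markers 15 were listed, with a summed scaled coverage of 58.0 to 101.8 in wild type and 49.9 to 61.9 in the knockout, and 12 of the 13 tested were lower in the knockout (median log2 -0.50). The highest of them, Fn1, was at 21.4 to 40.4. The part of these marker differences in the results below was not tested.

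Cytosolic synthetase mRNAs were the more abundant class. Their median coverage was 35.8, against 6.72 for the mitochondrial synthetases and 28.9 for the scaffold proteins, beside a median of 5.76 over all transcripts tested. The cytosolic median lay between 31.5 and 41.1 in the 6 libraries and the mitochondrial median between 6.23 and 7.85, so the cytosolic median was the higher in every library. Among genes whose listed cytosines span 1000 nt or more, the medians were 48.0 for 10 cytosolic and 6.88 for 12 mitochondrial genes. The 7 cytosolic synthetases of the multisynthetase complex had a median of 49.7 and the 10 outside it 22.7. Genes spanning under 1000 nt lie in both groups, Qars and Mars1 inside and Cars, Farsb, Nars, Sars and Wars outside. Among genes spanning 1000 nt or more the groups overlapped. Means ran from 35.8 (Dars) to 62.7 (Lars) inside the complex and from 14.3 (Vars) to 142.9 (Gars) outside it.

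**Figure D1:**
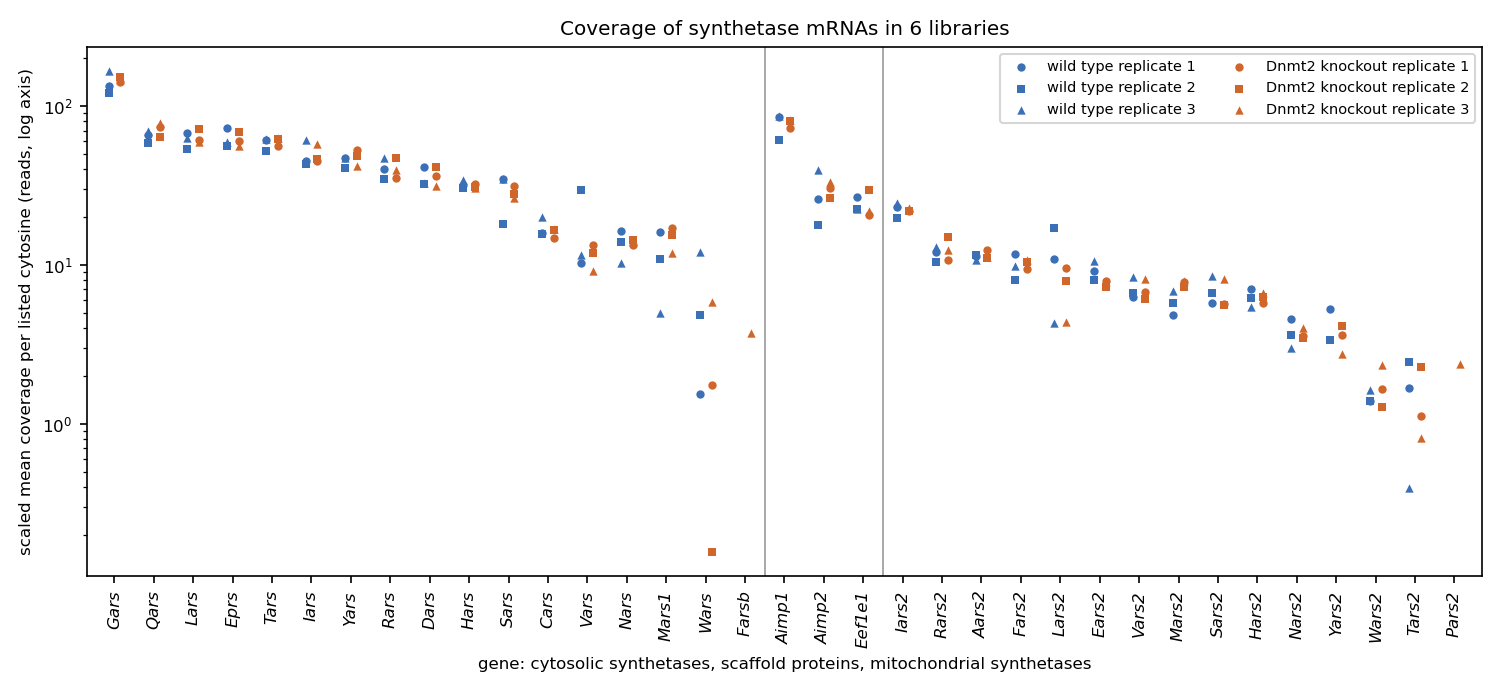
Scaled mean coverage per listed cytosine (reads, log axis) of the genes, by class and in falling order, with 1 point per library (colour for genotype, marker for replicate); a library at 0 is not drawn. Gars is the highest gene, and wild type replicate 2 stands above the other libraries for Vars.

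Gars, the glycyl-tRNA synthetase of both the cytosol and the mitochondria, was the most covered of the genes. It stood at 134.0, 120.2 and 165.8 in wild type replicates 1 to 3 against 140.6, 151.5 and 145.4 in the knockout. The knockout libraries lie within the range of wild type, and the log2 difference was 0.07 ± 0.15 (SE), with a 95% interval of -0.27 to 0.41.

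Next among the cytosolic synthetases, Qars, the glutaminyl-tRNA synthetase, stood at 65.4, 58.4 and 69.1 in wild type against 73.5, 63.5 and 78.5 in the knockout. Lars, the leucyl-tRNA synthetase, stood at 67.6, 53.7 and 63.2 in wild type against 61.3, 71.1 and 59.1 in the knockout. For both genes the genotypes overlap. Qars is listed only over positions 55 to 674 of its reference, counted from the 5′ end, whereas Lars is listed from 2 to 3792.

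Dars, the aspartyl-tRNA synthetase, was covered at 41.1, 32.1 and 32.8 in wild type against 36.2, 41.1 and 31.5 in the knockout. The genotypes overlap almost fully, with a log2 difference of 0.04 and a 95% interval of -0.31 to 0.39. Dars and Gars, which charge tRNAs that Dnmt2 methylates, thus had intervals narrower than a 1.5-fold change in either direction, and Vars, described below, did not.

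At the low end of the cytosolic class, Wars, the tryptophanyl-tRNA synthetase, stood at 1.53, 4.86 and 12.0 in wild type against 1.75, 0.157 and 5.84 in the knockout. Farsb, the beta subunit of phenylalanyl-tRNA synthetase, was listed in knockout replicate 3 only, at 3.75 over 11 cytosines, and was not tested. Wars is listed only over positions 25 to 150, so its values rest on 36 cytosines.

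The scaffold protein Aimp1 was covered at 84.9, 61.4 and 86.9 in wild type against 72.6, 80.5 and 81.7 in the knockout. Aimp2 stood at 25.9, 17.8 and 39.6 in wild type against 30.3, 26.4 and 33.3 in the knockout. Eef1e1, also known as Aimp3, stood at 26.7, 22.3 and 22.5 in wild type against 20.7, 29.5 and 21.9 in the knockout. All 3 overlap between genotypes, and wild type replicate 2 is the lowest library for Aimp1 and Aimp2.

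Among mitochondrial synthetases, Iars2 (isoleucine) was highest, at 23.0, 19.7 and 24.6 in wild type against 21.7, 21.9 and 22.7 in the knockout. Rars2 (arginine) stood at 12.1, 10.4 and 12.9 in wild type against 10.8, 15.0 and 12.4 in the knockout. Aars2 (alanine) stood at 11.3, 11.6 and 10.7 in wild type against 12.5, 11.1 and 11.1 in the knockout. None of these separates the genotypes.

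The lowest mitochondrial genes were near the limit of listing. Tars2 (threonine) was covered at 1.68, 2.45 and 0.395 in wild type against 1.12, 2.29 and 0.811 in the knockout. Pars2 (proline) was listed in knockout replicate 3 alone for its higher reference, at 2.38 over 12 cytosines, and was not tested.

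For 11 amino acids both a cytosolic and a mitochondrial gene were measured. In 9 of the 11 pairs the cytosolic gene was higher in every library that listed both, with ratios of means from 2.03 for Vars over Vars2 to 40.8 for Tars over Tars2 in those 9. The exceptions were Wars over Wars2, where knockout replicate 2 had a ratio of 0.123, and Mars1 over Mars2, where wild type replicate 3 had a ratio of 0.734. The steadiest pair was Rars over Rars2, at 3.13 to 3.64 in the 6 libraries. Wars, Mars1, Sars, Nars and Yars2 are listed over short stretches only, so the ratios of their pairs are less comparable. Tars2 was near the limit of listing, and the ratio of Tars over Tars2 ran from 21.2 to 157.1 in the 6 libraries.

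No synthetase gene passed the test of coverage between genotypes. Of the 33 genes tested, 0 passed an adjusted p of 0.05 (limma on log2 of scaled coverage plus 0.5, Benjamini-Hochberg over 10949 transcripts), and 0 of the 10949 did (0.0%). At an unadjusted p under 0.05 there were 0 of the 33 and 778 of all transcripts (7.11%). With the edgeR quasi-likelihood test on rounded coverage 0 were called, and 370 transcripts had an unadjusted p under 0.05, among them Vars and Lars2. The bulk coverage of a transcript would fall alike if fewer of the cells held it or if each cell held less of it. The libraries cannot tell these apart.

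In the knockout 23 of the 33 were higher and 10 lower, with a median log2 difference of 0.03, beside 6029 higher and 4920 lower of all transcripts, with a median of 0.03. The 95% interval lay within a 1.5-fold change in either direction for 21 genes and within a 2-fold change for 26. By class, 11 of 16 cytosolic, 9 of 14 mitochondrial and 3 of 3 scaffold genes were higher, with median log2 differences of 0.03, 0.01 and 0.03. These directions rest on the scaling and on single libraries: 18 of 33 were higher with DESeq2 size factors, 17 when scaled to the total, and 12 without wild type replicate 2.

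**Figure D2:**
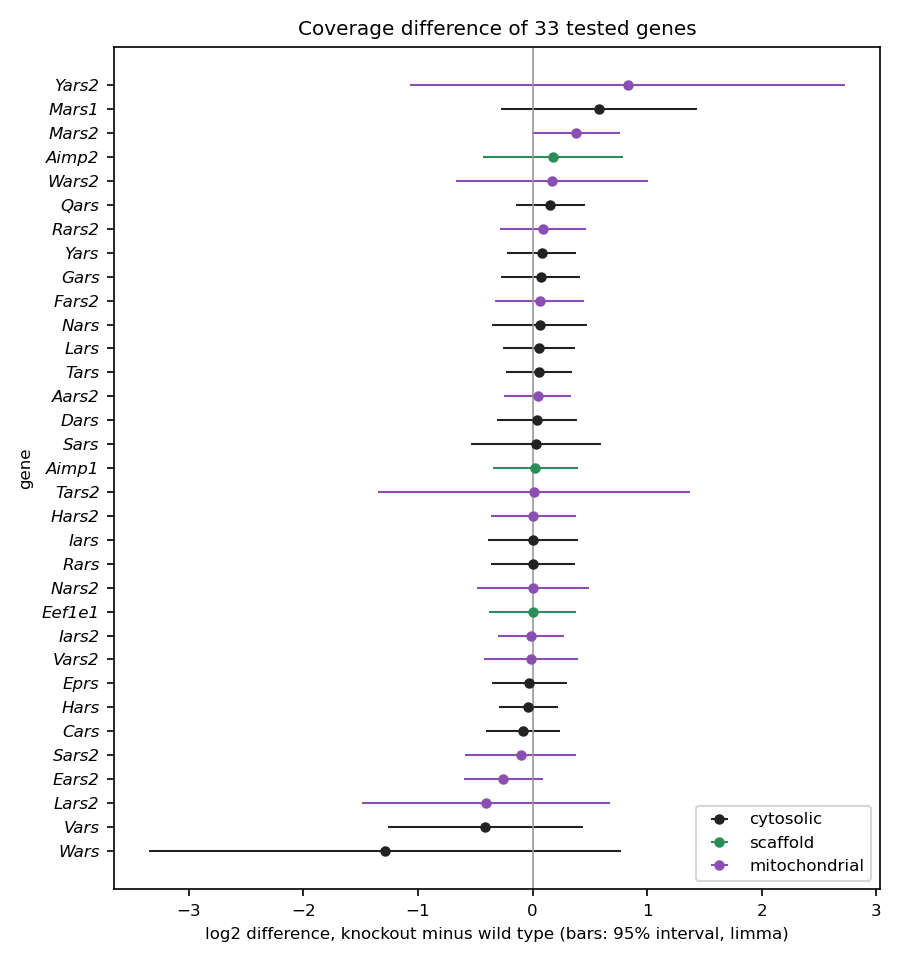
Log2 difference in scaled coverage, knockout minus wild type, of the 33 tested genes in order of the difference, with 95% intervals from limma as bars and colour for class. All 33 intervals include 0, and the widest belong to Wars, Yars2 and Tars2.

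The ranges of the genotypes did not overlap for 2 of the 33 genes, beside 12.1% of all transcripts. Mars2, the mitochondrial methionyl-tRNA synthetase, stood at 4.86, 5.71 and 6.81 in wild type against 7.75, 7.21 and 7.97 in the knockout (log2 difference 0.38 ± 0.17 SE, 95% interval from just under 0 to 0.77, limma adjusted p = 0.704). Ears2, the mitochondrial glutamyl-tRNA synthetase, stood at 9.21, 8.04 and 10.6 in wild type against 7.88, 7.22 and 7.85 in the knockout (log2 difference -0.25 ± 0.15 SE, 95% interval -0.60 to 0.09, limma adjusted p = 0.871). The 3 knockout libraries are thus all above wild type for Mars2 and all below it for Ears2, and neither gene passed the test.

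The other genes with the largest positive differences are listed over short stretches. Yars2, the mitochondrial tyrosyl-tRNA synthetase, is listed over 15 cytosines, at 5.25, 3.36 and 0 in wild type against 3.63, 4.13 and 2.75 in the knockout (log2 difference 0.83 ± 0.82 SE). Without wild type replicate 3, where it is not listed, the difference was -0.26. Mars1, the cytosolic methionyl-tRNA synthetase, is listed over positions 2540 to 2700, at 16.1, 10.9 and 5.00 in wild type against 17.1, 15.5 and 11.8 in the knockout (log2 difference 0.58 ± 0.37 SE). Its difference was 0.13 without wild type replicate 3 and 0.94 without wild type replicate 1. Of the 40 cytosines of Mars1, 15 were listed in wild type replicate 3 and 29 to 39 in the other libraries. Aimp2 follows with a log2 difference of 0.18 ± 0.26 (SE), which was -0.11 without wild type replicate 2.

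Wars had the lowest log2 difference, -1.29 ± 0.89 (SE), with a 95% interval of -3.35 to 0.77. Its wild type libraries alone span 1.53 to 12.0. The difference was -0.45 without knockout replicate 2, -0.70 without wild type replicate 3, -1.97 without wild type replicate 1 and -2.07 without knockout replicate 3. The 25 genes outside the 4 largest differences in each direction lay between -0.10 and 0.17.

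Vars, the valyl-tRNA synthetase, was set apart in a single library. It stood at 10.3, 29.5 and 11.6 in wild type replicates 1 to 3 against 13.3, 11.9 and 9.17 in the knockout. Wild type replicate 2 is high, and the other 5 libraries overlap. The log2 difference was -0.41 ± 0.37 (SE), with a 95% interval of -1.27 to 0.44 (limma adjusted p = 0.962), and 0.05 without wild type replicate 2. The edgeR test gave -0.89.

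The higher coverage of Vars in that library extends along the transcript. Over positions 1 to 1000 it was 17.6 beside 5.51 to 7.70 in the other libraries, and over positions 3001 to 4201 it was 37.9 beside 11.8 to 17.0. Of 5916 transcripts with a mean coverage of 5 or more, only Vars and Eif3f, a subunit of the translation initiation factor eIF3, were more than 2 times the highest other library in wild type replicate 2. Eif3f stood at 8.67, 25.2 and 4.75 in wild type against 9.44, 7.96 and 4.43 in the knockout. The nearest listed gene on each side of Vars in the gene order of GRCm38.p6 did not share the pattern. D17H6S56E-5, directly beside Vars, was at 4.44 in wild type replicate 2 and at 2.54 to 4.51 elsewhere. Clic1, beyond genes that were not listed, was at 20.8 in wild type replicate 2 and at 18.5 to 25.4 elsewhere.

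Lars2, the mitochondrial leucyl-tRNA synthetase, was covered at 10.9, 16.9 and 4.29 in wild type against 9.55, 7.89 and 4.37 in the knockout. In replicates 1 and 2 of both genotypes most of this lies in positions 3200 to 3500 of its reference. In the replicate 3 libraries most lies outside these positions. In this stretch 43 cytosines had a mean coverage of 135, 241 and 32.5 in wild type against 113, 81.6 and 23.9 in the knockout. Over the other 734 cytosines it was 3.68, 3.81 and 2.64 in wild type against 3.47, 3.57 and 3.22 in the knockout. The log2 difference of -0.41 ± 0.47 (SE) became 0.03 without the stretch and 0.00 without wild type replicate 2, so it rests on those 43 cytosines and on that library. It was -0.11 without knockout replicate 3, -0.63 without knockout replicate 1 and -0.94 without wild type replicate 3, and the edgeR test gave -0.93. Among the other genes spanning 1000 nt or more, the highest window of 100 nt stood at most 5.00 times above the rest of the transcript. Both replicate 3 libraries are the lowest in the stretch.

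**Figure D3:**
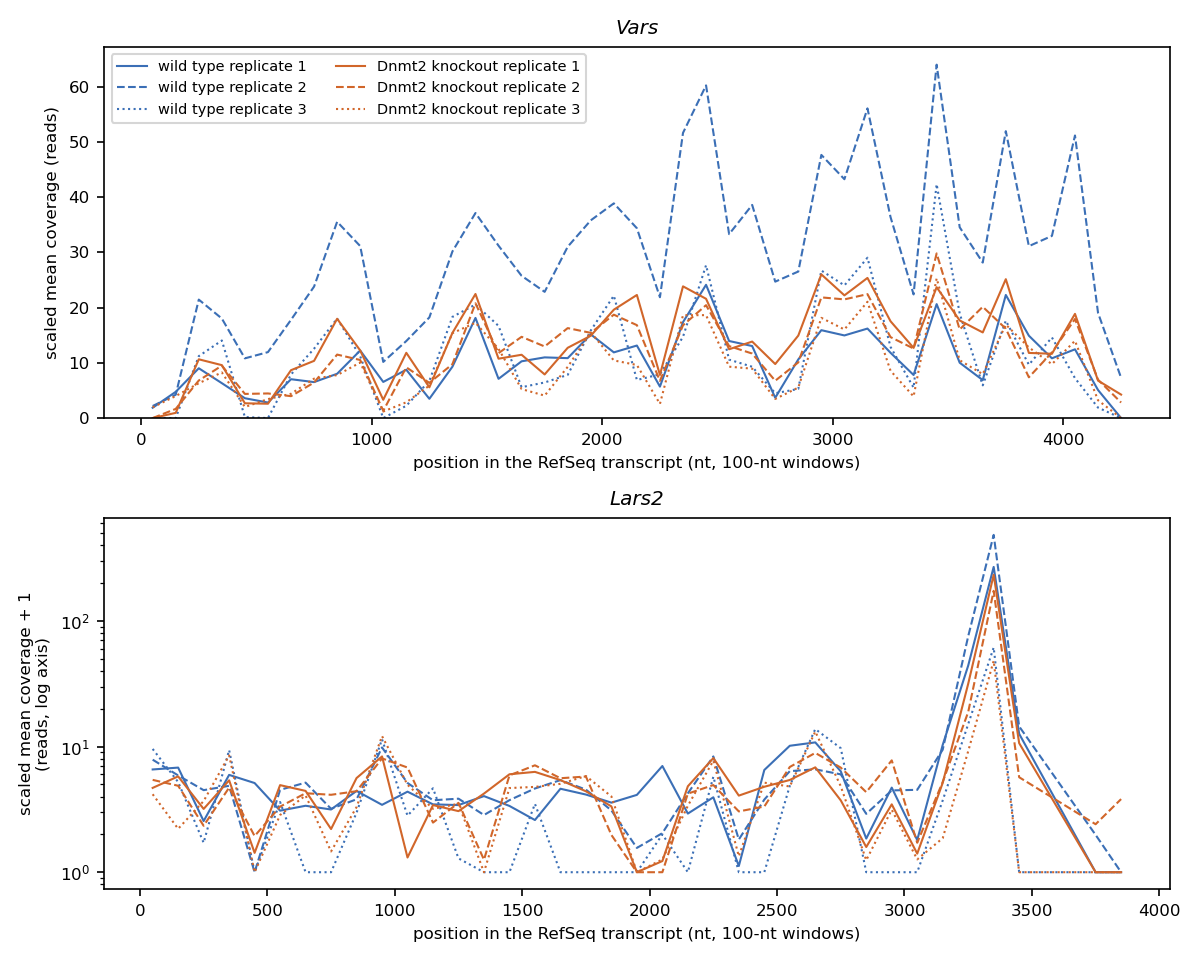
Scaled mean coverage in windows of 100 nt along the RefSeq transcripts of Vars (linear axis, reads) and Lars2 (log axis, reads plus 1), 1 line per library, with colour for genotype and line style for replicate. Wild type replicate 2 lies above the other libraries along Vars, and every library peaks in the same stretch of Lars2.

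Other genes that handle tRNAs or use them were set beside the synthetases, and 0 of them passed the limma test. Of 29 tested genes for tRNA export, processing, modification and proofreading, 14 were higher and 15 lower in the knockout (median log2 -0.01); the highest were Nsun2, a tRNA cytosine methyltransferase, at 49.3 to 62.4, and Xpot, the tRNA exporter, at 34.4 to 45.5. Of 13 cytosolic elongation and termination genes, 8 were higher and 5 lower (median 0.02), led by Eef1a1 at 2293 to 3628 and Eef2 at 1065 to 1577. Of 17 mitochondrial translation factor and tRNA modification genes, 10 were higher and 7 lower (median 0.01), led by Gfm1 at 19.7 to 29.3 and Tsfm at 17.2 to 25.2. Of 24 genes of the integrated stress response, through which uncharged tRNA acts, 8 were higher and 16 lower (median -0.15), led by Asns at 82.6 to 118.2 and Slc3a2 at 48.5 to 80.1. An unadjusted p under 0.05 was reached in these 4 lists by Abce1 (log2 difference -0.52), Gtpbp3 (-0.56) and Slc7a5 (-0.90), chosen after their values were seen; all 3 are on chromosome 8. That is 3 of the 83 tested genes of the 4 lists (3.61%), beside 7.11% of all transcripts, and 40 of the 83 were higher in the knockout (48.2%), beside 55.1% of all transcripts.

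Non-conversion, the percentage of reads that kept a cytosine after bisulfite treatment, is the measure of cytosine methylation in these libraries. Over the synthetase genes it was at the level of the libraries' background. That background is pooled from mRNA cytosines of the same libraries, synthetase cytosines among them, and is no unmethylated control. A match to it shows only that these mRNAs resembled mRNAs in general. Of 5523 cytosines of these mRNAs with 10 or more reads in all 6 libraries, 35 had a mean non-conversion of 5% or more, which is 0.634%, beside 1.10% of all such cytosines. The median was 1.48% in the synthetase mRNAs and 1.51% in all mRNAs.

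Within wild type, 0 of 5563 synthetase cytosines were called methylated, beside 162 of 765735 in all mRNAs (0.0212%), and within the knockout 0 of 8259, beside 387 of 1365927 (0.0283%). A call required exact binomial tests against the library background, combined and adjusted to p under 0.05, and a level of at least 10% in each library. Without the 10% minimum, 6 synthetase cytosines passed the test in wild type and 9 in the knockout, beside 2362 and 4004 in all mRNAs. Lowering the minimum to 5% called 1 synthetase cytosine in wild type, beside 452 of 765735 in all mRNAs. In the knockout it called 1, beside 1018 of 1365927. These were Eprs position 1093 in wild type (5.48%, 9.09% and 5.56% of 73, 88 and 18 reads) and Qars position 417 in the knockout (7.03%, 9.47% and 6.94% of 128, 95 and 245 reads).

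The highest cytosine by mean was position 288 of Hars, the histidyl-tRNA synthetase, at 16.7%, 0% and 25.0% of 18, 39 and 16 reads in wild type against 7.14%, 0% and 0% of 42, 39 and 46 reads in the knockout. Wild type replicate 2, the deepest of its genotype, had 0 non-converted reads there. Without that library the position was called in wild type, alone among 5563 synthetase cytosines tested. This left out the library with 0 non-converted reads. Calls in all mRNAs also rose when single wild type replicates were left out, as given in the closing sections.

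The next 9 cytosines had means of 6.09% to 7.48%. Lars position 1211 was at 11.1%, 0% and 21.4% in wild type against 4.76%, 3.85% and 3.70% in the knockout. Aars2 position 325 was at 4.55%, 2.94% and 25.0% in wild type against 2.86%, 5.26% and 0% in the knockout. In both, the highest value is from wild type replicate 3, which had 14 and 16 reads there.

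Iars2 position 1855 was at 10.0%, 8.33% and 10.0% in wild type against 5.56%, 6.25% and 0% in the knockout, on 10 to 24 reads. Qars position 520 was at 11.1%, 0% and 0% in wild type against 17.4%, 10.3% and 0% in the knockout. Eprs position 3238, in the mRNA of the enzyme that charges glutamate and proline, was at 4.17%, 4.41% and 7.69% in wild type against 5.88%, 7.02% and 9.30% in the knockout. The Iars2 position had 10 reads in wild type replicates 1 and 3, so a single non-converted read gave 10.0% there.

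Lars position 3304 was at 5.77%, 2.30% and 10.0% in wild type against 13.4%, 5.26% and 1.06% in the knockout. Lars position 1954 was at 0%, 0% and 27.8% in wild type against 3.70%, 3.23% and 2.86% in the knockout, and Iars position 1231 at 2.78%, 0.990% and 17.6% in wild type against 1.79%, 9.80% and 4.17% in the knockout. Hars position 1456 was at 6.06%, 1.96% and 6.25% in wild type against 7.14%, 0% and 15.2% in the knockout. All 4 overlap between genotypes.

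Of the 35 synthetase cytosines tested between genotypes, 0 passed the edgeR quasi-likelihood test, and 0 of 8186 did in all mRNAs (0.0%), with 201 of 8186 (2.46%) at an unadjusted p under 0.05 and 0 of the 35. A Fisher exact test on summed reads called 27 cytosines of all mRNAs and 0 in synthetase mRNAs. The largest difference among the 10 highest, -11.5 percentage points at Hars position 288, had an edgeR adjusted p of 0.999. At this depth that difference did not exceed the spread between libraries. In simulated data the test missed most moderate differences at single cytosines and many large ones. The lack of calls thus says little about differences at single cytosines.

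Pooling cytosines gave 22 references with 20 or more cytosines covered in every library. Their non-conversion followed the background of the library, which is itself pooled from its mRNA cytosines. The median over the 22 was 1.62%, 1.47% and 1.51% in wild type replicates 1 to 3 and 1.78%, 1.84% and 1.46% in the knockout, beside library backgrounds of 1.59%, 1.45% and 1.50% and of 1.77%, 1.76% and 1.42%. Knockout replicates 1 and 2 are high in both measures and knockout replicate 3 is low in both. In the knockout 16 of the 22 were higher, with a median difference of 0.177 points, beside 3535 of all 4349 references, with a median of 0.148 points.

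The edgeR quasi-likelihood test called 0 of the 22 and 0 of 4349 (0.0%), with 0 of the 22 and 103 of 4349 (2.37%) at an unadjusted p under 0.05. Gars was at 1.63%, 1.40% and 1.48% in wild type against 1.93%, 1.73% and 1.39% in the knockout, on 531 cytosines. Tars was at 1.75%, 1.55% and 1.61% in wild type against 2.11%, 2.12% and 1.60% in the knockout, on 425 cytosines. Both show knockout replicates 1 and 2 above wild type and replicate 3 within it or below.

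Without knockout replicate 3 the test called 5 of the references (Eprs, Gars, Lars, Tars and Yars), all higher in the knockout by 0.319 to 0.478 points, beside 615 of all 4360 (14.1%), 0 of which were lower. The backgrounds of the libraries compared were 1.77% and 1.76% in the knockout and 1.45% to 1.59% in wild type. Without both replicate 3 libraries the test called Tars alone, beside 114 of 5522 (2.06%). The part of the background in these calls was not tested.

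**Figure D4:**
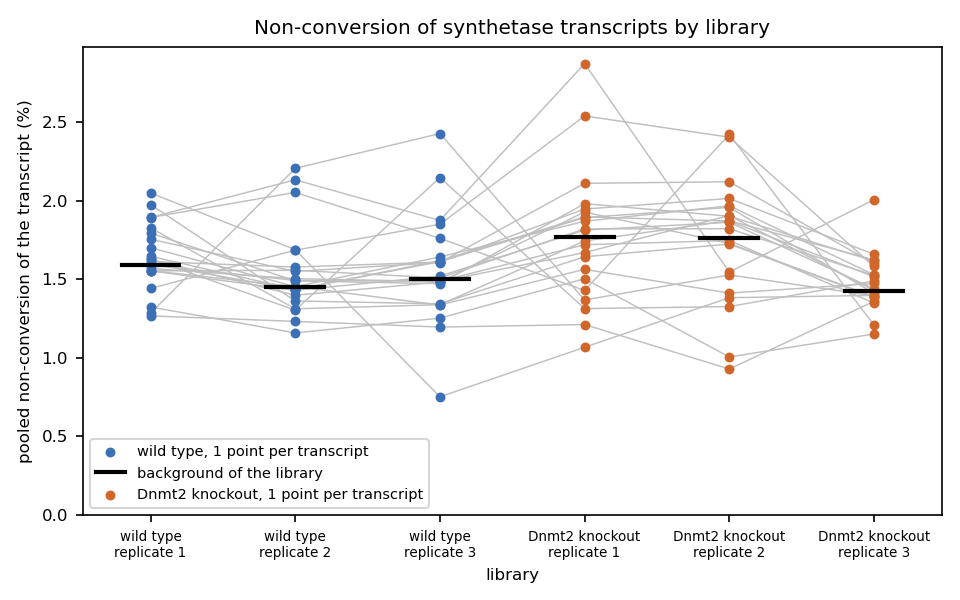
Pooled non-conversion (%) of 22 synthetase transcripts in each library, 1 point per transcript with grey lines joining the same transcript, and the background of each library as a black bar. The points of knockout replicates 1 and 2 centre near their backgrounds of 1.77% and 1.76%, and those of knockout replicate 3 near 1.42%.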

How the data were processed

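RNA bisulfite sequencing of the rRNA-depleted long RNA fraction was analysed in 6 libraries, and the other 10 libraries of the series were not used here. Per the file headers, each deposited file gives for every listed cytosine the coverage, a count of reads, and the unconversion ratio, a fraction. BSMAP and build mm9 were used by the authors, per the submitters' processing notes, with its version not given in the sources used here. Listed coverage started at 3 reads. A cytosine listed in some libraries entered as 0 in the others, and one listed in none was left out. In 100% of 20824445 entries coverage times ratio was whole within 0.01, so non-converted reads were recovered. The files hold no molecular identifiers, so reads may repeat a molecule. Of 15330 references, 15235 matched a symbol in a RefSeq table of GRCm38.p6, used for names, chromosomes and gene order.

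Mean coverage per cytosine was TMM-scaled, transcripts under a mean of 1 were dropped, and genotypes were compared by limma-trend (limma 3.58.1) after log2 transformation with a pseudocount of 0.5, which shrinks differences of transcripts with low coverage. Non-conversion was tested with the quasi-likelihood test of edgeR 4.0.16 in R 4.3.3, per cytosine (10 or more reads in all libraries, mean of 5% or more) and per reference. Adjusted p is Benjamini-Hochberg over all features. A library's background is its pooled non-conversion over cytosines with 10 or more reads and non-conversion of 10% or less. Fits were tested on simulated data whose spread was estimated from the real data. There the test per cytosine missed most moderate differences and many large ones. Alternatives covered scaling (with DESeq2 1.42.0), filters, pseudocount, tests, the replicate block and left-out libraries. In no pair of libraries of a genotype were over 7.80% of entries identical.

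The genes and lists were chosen with earlier results of these data known. Values per library are given for the 3 highest and 2 lowest genes of each class, the 4 largest differences in each direction, the 10 highest cytosines and the 2 highest genes of each other list; Dars was added for its substrate.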

Additional observations from a re-analysis of the deposited data

How the results depend on the processing

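Coverage called 0 synthetase genes under all 16 planned and 2 added alternatives. The count over all transcripts, 0, became 1 with only cytosines listed in all 6 libraries, 1 with the median coverage per cytosine (chosen after seeing the data), and 0 to 1 when leaving out single replicates, which took the number of synthetase genes higher in the knockout to 12 to 24. On the log2 scale, leaving out single replicates gave ranges that include both signs for Yars2 (-0.26 to 1.53), Aimp2 (-0.11 to 0.46), Vars (-0.69 to 0.049), Lars2 (-0.94 to 0.000655), Dars (-0.056 to 0.15) and Gars (-0.037 to 0.19); without wild type replicate 2, 15 of 33 genes changed sign. Without sign changes, Mars1 ranged from 0.13 to 0.94 and Wars from -2.07 to -0.45. Yars2 was -0.18 with edgeR and -0.12 without both replicate 3 libraries. Lars2 was 1.02, Mars1 1.55, Mars2 1.55 and Dars -0.032 with the median coverage. In wild type replicate 3 only 214 of 777 cytosines of Lars2, 15 of 40 of Mars1 and 249 of 552 of Mars2 were listed. Their median coverage in that library was therefore 0, and these differences include that 0. Lars2 was 0.030 without positions 3200 to 3500, an alternative also chosen after seeing the data. The causes were not tested beyond the values given for Vars, Lars2, Yars2, Mars1 and Mars2.

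Cytosine tests between genotypes called 27 in all mRNAs with the Fisher exact test and 0 to 1 when leaving out single replicates, which took Lars position 3304 to between -1.30 and 3.33 points. Transcript non-conversion called 2 references at coverage of 5 or more and 0 to 615 when leaving out single replicates (0 to 5 of synthetases), and 114 without both replicate 3 libraries (1 of synthetases). Calls within wild type, 162 in all mRNAs, were 259 at coverage of 5, 77 at coverage of 20, 452 at 5% (1 in synthetase mRNAs), 48 at 20%, 357 without both replicate 3 libraries and 216 to 357 when leaving out single replicates (0 to 1 in synthetase mRNAs). Calls within the knockout, 387, were 217 at coverage of 20, 1018 at 5% (1 in synthetase mRNAs) and 129 at 20%. The cause was not tested.

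Whether replicate numbers pair the libraries was not settled. Deviations from the genotype mean correlated at 0.139, 0.040 and 0.304 for same-numbered libraries and at -0.291 to 0.216 for the others. The replicate 3 libraries had the highest value, and each correlated negatively with the libraries of other numbers in the other genotype. Deviations from a genotype mean sum to 0 within that genotype. The negative values thus follow in part from the positive one and carry little separate information. A shared effect of replicate 3 was not tested. With the replicate block 0 synthetase genes, cytosines or references were called, and 1 reference in all for transcript non-conversion. Depth limits the values of single cytosines, with a median of 6 to 11 reads per listed cytosine.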

Other observations

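Single libraries stand above all others for a few transcripts. Of 5916 transcripts with a mean coverage of 5 or more, those over 2 times the next highest library numbered 18 in wild type replicate 3, the shallowest library, 2 in wild type replicate 2, 2 in knockout replicate 1, 1 each in wild type replicate 1 and knockout replicate 3, and 0 in knockout replicate 2. Vars in wild type replicate 2 was at 2.22 times the highest other library and Eif3f at 2.67 times.

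The 8 minor references of the synthetase genes had mean coverage from 0.280 to 8.94, the highest being those of Cars (8.94) and Nars (7.51). Sars, the seryl-tRNA synthetase, has a second reference at 0, 0.997 and 0 in wild type against 1.89, 1.10 and 3.13 in the knockout, over 18 cytosines, beside 18.2 to 34.6 for its main reference. The genotypes do not overlap for this minor reference, named after its values were seen, and it did not pass the limma test (adjusted p = 0.701). The authors' counting could split reads between such references.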
